A study of Mus musculus with 4 samples.

Results

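The genes described here are 31 genes of the oligodendrocyte lineage, from the receptors of progenitor cells and the transcription factors that set the lineage to the proteins and lipids of myelin. They were chosen by gene name, and every probe that the array files assign to 1 of these names was read, which gave 42 probes on 51 spots among the 29676 gene names of the array. All cells came from astrocyte-enriched cultures (AECs) prepared from the cortex of newborn ICR mice. The glial cultures were mixed and had been treated with PLX3397 (pexidartinib), which blocks the receptor that microglia need to survive, so both groups shared this treatment. The untreated group (n = 2) was compared with cultures held for 15 h under oxygen–glucose deprivation (OGD, n = 2), that is, in medium without glucose under hypoxia, a culture model of hypoxic–ischemic injury. The procedure enriches astrocytes by removing microglia, and it does not sort cells or remove oligodendrocytes. Wells were seeded from cultures of different pups according to the methods, and the labels do not link an array to an animal, so the p-values measure the spread between these arrays.

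Oligodendrocytes arise from progenitors that carry the receptor for platelet-derived growth factor A and the proteoglycan NG2. The transcription factors Olig2, Olig1 and Sox10 hold cells in the lineage, premyelinating cells then leave the cell cycle, and mature cells wrap axons in myelin, a membrane rich in galactolipids and myelin basic protein. The lineage is known for its sensitivity to lack of oxygen and glucose in the newborn brain, where injury of its immature stages leads to loss of white matter.

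Each array carried 43020 non-control spots, and the share of spots marked as well above background was 73.0% to 73.7% without treatment and 64.5% to 66.2% after OGD. Spots were dimmer after OGD in general. The 75th percentile of the processed signal lay at 2135 and 2164 fluorescence units without treatment and at 887 and 776 with OGD, which is −1.37 in log2 units, whereas 9 spiked-in control probes differed by −0.085 on average (range −0.75 to 0.28). A change is given below as OGD minus untreated in log2 signal relative to each array's 75th percentile, with its standard error and the p-value of limma adjusted over the 28163 probes tested. Under scaling on the spiked-in probes, the median change of all genes moved from 0.16 to −1.13. All 4 arrays lay on 1 slide.

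Most of the lineage genes were measurable in these cultures. Of the 31 genes, 28 were read well above background in both untreated cultures and 24 on all 4 arrays. The brightest probe of 29 genes was dimmer on both OGD arrays than on both untreated arrays before any scaling. Spots were dimmer after OGD in general, as given above, and the share of all genes that meet this was not counted. Relative to the 75th percentile, genes of the list changed in both directions. Of the 28 genes that passed the filter on dim probes, 11 were higher (39.3%), 8 were lower (28.6%) and 9 did not pass the adjusted p limit of 0.05 in limma, whereas 37.1% of all 20997 genes tested were higher and 27.9% were lower (65.0% in either direction). The shares over the whole list were therefore close to those of all genes, and so was its median change of 0.22 against 0.16. Of the 8 lower, Sox10 and Fa2h passed the filter only through the untreated arrays. With the filter applied to all 4 arrays, 24 genes were tested. Of these, 11 were higher (45.8%) and 6 lower (25%), beside 43.3% and 28.2% of all genes. No gene of the list passed a 10-fold limit (0 of 28, background 1.27% of all genes), and 4 were higher and 5 lower by more than 2-fold (background 12.7% and 15.0%). Among these 4 are Ermn, read on a probe with a repeat described below, and Mbp, whose other tested probes changed by less than 2-fold (0.80 and 0.50). Without untreated replicate 1 the counts were 6 higher and 6 lower (23.1% and 17.7% of all genes), without untreated replicate 2 they were 6 and 5 (19.7% and 17.8%), without OGD replicate 1 they were 12 and 10 (37.9% and 29.5%), and without OGD replicate 2 they were 10 and 8 (36.9% and 29.1%). In the methods' t-test 8 were higher and 6 lower (25.8% and 19.8% of all genes), and Pdgfra, Nkx6-2, Ermn, Trf and Fa2h no longer passed. On the spike-in scale all 28 genes were below 0, so that 0 were higher in limma at any p, and 24 were lower, beside 3.85% and 83.4% of all genes. In RNA from whole cultures, fewer cells of the lineage and less of an RNA per cell cannot be told apart.

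**Figure D1:**
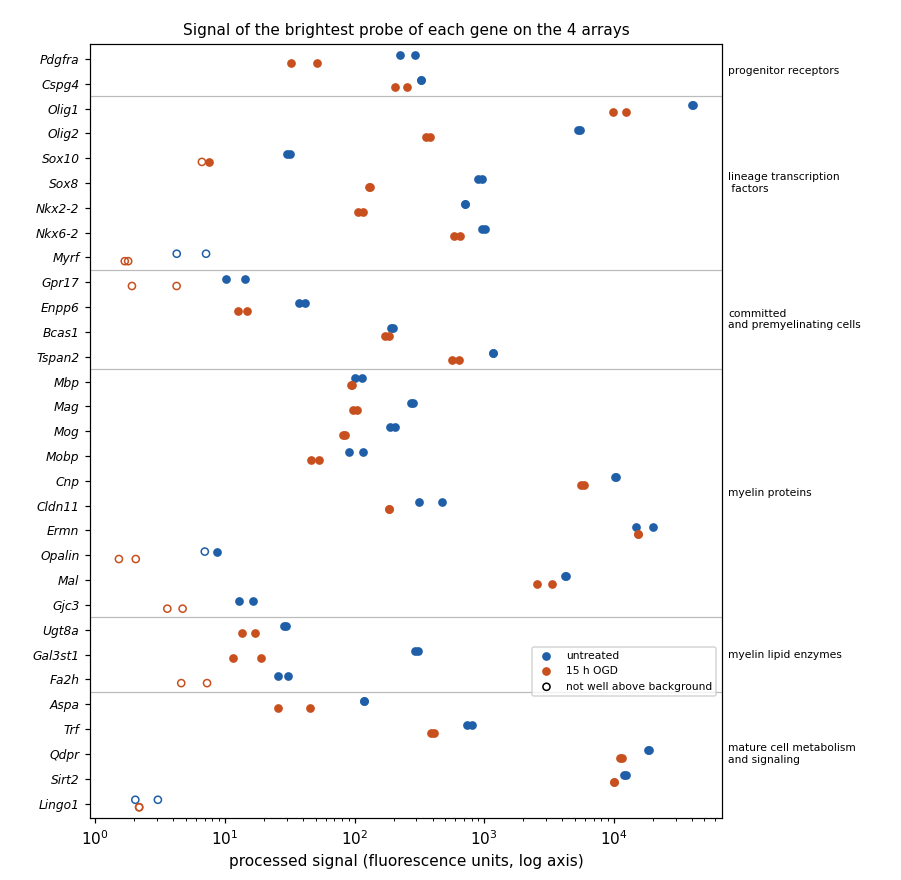
Processed signal (fluorescence units, log axis) of the brightest probe of the 31 genes on the 2 untreated arrays (blue) and the 2 arrays after 15 h OGD (orange), with open circles for arrays where the probe was not well above background. The untreated and OGD arrays of Olig2 lie at 5491 and 5336 against 379 and 358, whereas those of Bcas1, at 191 and 197 against 172 and 186, lie close together.

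Most of the lineage transcription factors tested fell. Of the 7 factors, 6 were tested, 5 were lower and 1 was higher, with a median change of −1.03, beside 27.9% of all genes lower and a median of 0.16. On the spike-in scale all 6 were lower with a median of −2.32, beside 83.4% of all genes and a median of −1.13. Sox10, 1 of the 5 lower, passed the filter only through the untreated arrays. With the filter applied to all 4 arrays, 4 of 5 tested were lower (28.2% of all genes). With normexp correction, described below, 4 of the 6 were lower and 2 higher (20.8% and 60.6% of all genes). Olig2, the factor that specifies the lineage, had the largest decrease of the 6. Its probe (NM_016967, mm9 chr16:91228470-91228529, plus strand) read 5491 and 5336 without treatment and 379 and 358 after OGD. The groups were far apart relative to the spread within them, at 1.33 ± 0.043 (SD, n = 2) and −1.17 ± 0.076 (SD, n = 2) in log2 signal, a decrease of 5.68-fold (−2.50 ± 0.086, adjusted p = 0.000719 in limma). Olig1 lies beside Olig2 on the same chromosome (probe at mm9 chr16:91271799-91271858) and encodes a related factor that acts later in myelination. Its signal was 40248 and 40851 without treatment and 12527 and 9906 with OGD. The scaled change was −0.49 ± 0.091 (adjusted p = 0.013 in limma), and −1.09 with quantile normalization.

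Sox8 and Sox10 are related factors of the SoxE group, of which Sox10 drives the genes of myelin. Sox8 read 895 and 966 against 128 and 132, without overlap, and fell by 1.47 on the log2 scale (SE 0.115, adjusted p = 0.0018 in limma). Sox10 was dim, at 31.7 and 30.1 untreated and 7.50 and 6.64 after OGD, and its probe was above background on OGD replicate 1 but not on OGD replicate 2. Its change was −0.76 ± 0.082 (adjusted p = 0.0034 in limma), and with normexp correction, described below, it had the opposite sign. Nkx2-2, a homeodomain factor of differentiating progenitors, read 715 and 718 against 117 and 106 and fell by 1.31 (SE 0.076, adjusted p = 0.00113 in limma), with a change of −0.87 under normexp correction. A second Nkx2-2 probe, at 470 and 437 against 101 and 105, also fell, by 0.76 (adjusted p = 0.0095 in limma).

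Nkx6-2, a homeodomain factor found in myelinating cells, went the other way on the percentile scale. It read 964 and 1017 untreated and 590 and 652 after OGD, which was 0.70 ± 0.143 higher after scaling (adjusted p = 0.0171 in limma) and −0.59 on the spike-in scale. Myrf, the factor that switches on myelin genes in mature cells, was not well above background on any array (4.25 and 7.15 untreated, 1.69 and 1.79 after OGD), and no change is given for it. Without untreated replicate 1 or 2, Olig1 (−0.49 in both cases) and Nkx6-2 (0.67 and 0.73) kept their values but no longer passed the limit.

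The promoter of Olig2 is printed because this factor had the largest decrease among the transcription factors tested. The window holds the 250 bases before its start in RefSeq (GRCm38.p6, chr16:91225300-91225549, plus strand), and capitals mark the letters GCGTG, the core that hypoxia-inducible factors are known to recognise.
Olig2 promoter: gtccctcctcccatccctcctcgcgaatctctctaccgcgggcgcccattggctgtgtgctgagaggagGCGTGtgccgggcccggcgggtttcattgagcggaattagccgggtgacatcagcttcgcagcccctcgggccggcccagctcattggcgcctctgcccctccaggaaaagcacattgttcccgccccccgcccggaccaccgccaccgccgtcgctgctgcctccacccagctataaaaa
The core ACGTG or GCGTG was searched on both strands in windows of 300 bases, from 250 before to 50 after the start. Of the 31 genes, 23 matched an entry of the RefSeq table, and 12 of these (52.2%) had the core in a window, beside 46.7% of all 27025 genes. The match in Olig2 is a description of letters and does not mark a site in use.

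The progenitor receptors moved apart. Pdgfra, the receptor through which progenitors are kept dividing, read 226 and 290 without treatment and 51.6 and 32.5 after OGD (mean of 10 spots per array, and of 9 on OGD replicate 2, where 1 outlier spot was left out). It fell from −3.07 ± 0.241 to −4.34 ± 0.336 (SD, n = 2), by 1.27 on the log2 scale (SE 0.223, adjusted p = 0.0113 in limma), and without untreated replicate 2 the change was −1.10 and did not pass. With normexp correction it was −0.34, and in the methods' t-test it did not pass. Cspg4, which encodes NG2, read 323 and 325 against 256 and 206. After scaling it was higher by 0.88 ± 0.086 (adjusted p = 0.00269 in limma), and its change on the spike-in scale was −0.41. Both receptors are also known from other cells, Cspg4 from pericytes and Pdgfra from meningeal fibroblasts, although the meninges had been removed from the cortex according to the methods. Of 12 pericyte and fibroblast markers, 2 were higher and 2 lower among the 9 tested (22.2% each, beside 37.1% and 27.9% of all genes), and Abcc9 and Kcnj8 were not above background on any array. Those lower were Pdgfrb, the receptor of pericytes (2192 and 2421 against 177 and 156, −2.42, adjusted p = 0.000742 in limma), and Col3a1, a collagen of fibroblasts (2369 and 2141 against 538 and 351, adjusted p = 0.0122 in limma). Those higher were Fbln1, a matrix protein of fibroblasts (436 and 385 against 371 and 290, 1.05, adjusted p = 0.0037 in limma), and Rgs5, a marker of pericytes (0.38, adjusted p = 0.0396 in limma). The median change of the markers tested was −0.14 (0.16 for all genes), and −0.38 to 0.16 with an array left out. Fewer of them passed without either untreated array, as was so for all genes, or without OGD replicate 2. On the spike-in scale all 9 were below 0 and 8 were lower, beside 83.4% of all genes. The summed level of 11 of these markers, in multiples of the array's 75th percentile, was 11.4 to 13.4 untreated and 8.88 to 11.4 after OGD (6.51 to 7.24 and 1.99 to 2.65 relative to the spiked-in probes), and the part of such cells in the values of Pdgfra and Cspg4 was not tested.

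**Figure D2:**
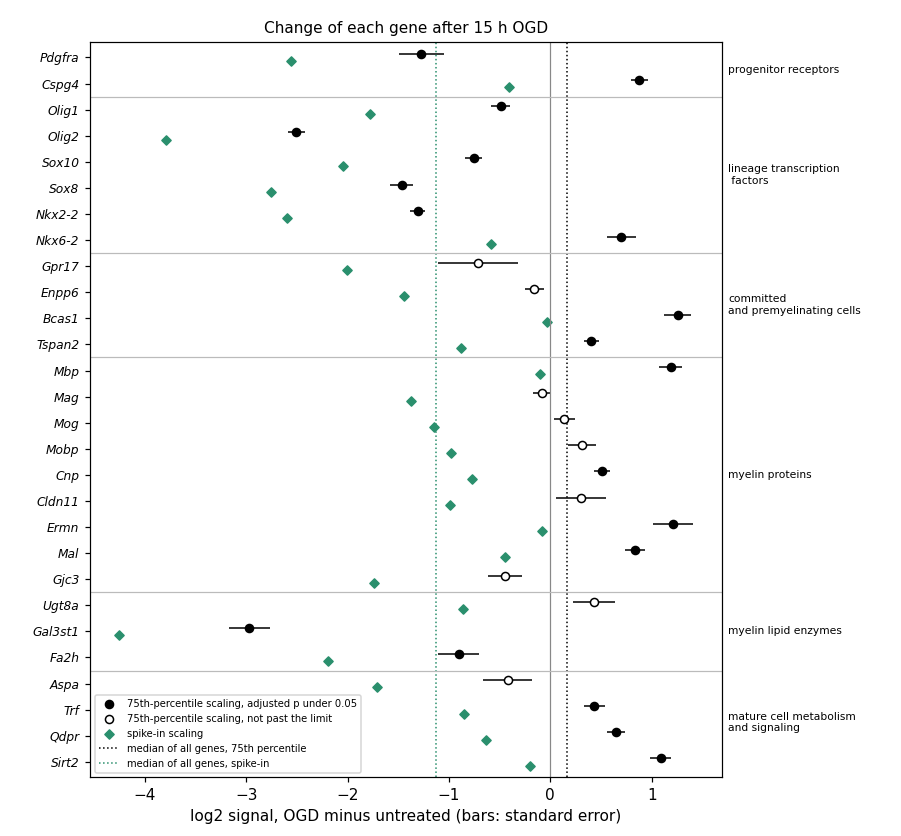
Change of the 28 genes tested (OGD minus untreated, log2 signal, bars are standard errors) relative to the 75th percentile (circles, filled where the adjusted p in limma was under 0.05) and on the spike-in scale (green diamonds). Dotted lines give the median of all genes, 0.16 and −1.13, and every green diamond lies below 0.

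Among genes of committed and premyelinating cells, 2 of 4 were higher (37.1% of all genes) and the other two did not pass, with a median of 0.12 (0.20 with Gpr17, which was dim after OGD, set to no change) that became −1.16 on the spike-in scale, beside −1.13 for all genes. Bcas1, a protein of cells that have begun to form myelin, kept nearly the same raw signal, 191 and 197 untreated and 172 and 186 after OGD. Relative to the 75th percentile it was higher by 1.26 ± 0.132 (adjusted p = 0.00315 in limma), and its spike-in change was −0.03. Tspan2, a tetraspanin of early myelinating cells, read 1173 and 1175 against 635 and 566 and was higher by 0.40 ± 0.075 after scaling (adjusted p = 0.013 in limma). A second Tspan2 probe, at 141 and 139 against 126 and 104, was higher by 1.08 (adjusted p = 0.00163 in limma). The first probe did not pass without untreated replicate 1 (0.41) or 2 (0.39), nor with the percentile taken over probes well above background (0.26).

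The other pair of this stage was dim. Gpr17, a receptor of cells between progenitor and premyelinating stage, read 14.4 and 10.2 untreated and 4.24 and 1.92 after OGD, and neither OGD array was well above background. Its scaled levels overlapped and no fold is given (adjusted p = 0.185 in limma). The fit passed without OGD replicate 1, when it rested on an OGD array on which the probe was not well above background. Enpp6, a choline phosphodiesterase of newly formed oligodendrocytes, read 37.0 and 41.6 against 14.8 and 12.5. The change was −0.16 ± 0.093 (adjusted p = 0.209 in limma), and its other 2 probes did not pass the filter.

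Of 10 genes of myelin proteins, 9 were tested, of which 4 were higher (44.4%, beside 37.1% of all genes) and 5 did not pass. The median change was 0.31, and −0.98 on the spike-in scale, where 7 of the 9 were lower (77.8%, beside 83.4% of all genes). With normexp correction 7 of the 9 were higher (77.8%, beside 60.6% of all genes), with a median of 0.78 against 0.51, and Mog stood at 0.54. Mbp, myelin basic protein, which holds the inner faces of the myelin membrane together, read 101 and 115 without treatment and 95.4 and 93.6 after OGD on its probe at mm9 chr18:82742266-82744570. Its raw signal thus differed little between the groups, and relative to the 75th percentile it was higher by 1.19 ± 0.113 (adjusted p = 0.00259 in limma), from −4.32 ± 0.122 to −3.13 ± 0.117 (SD, n = 2). Another Mbp probe, in a longer transcript of the locus, gave 126 and 139 against 96.1 and 54.0. Its OGD arrays were far from each other and the change of 0.50 ± 0.246 did not pass (adjusted p = 0.149 in limma), and the remaining Mbp probe was not well above background on any array.

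Cnp, an enzyme of the cytoplasm of myelin, read 10319 and 10506 untreated and 5908 and 5553 after OGD. It was higher by 0.51 ± 0.083 after scaling (adjusted p = 0.00908 in limma) and stood at −0.78 on the spike-in scale, and it did not pass without untreated replicate 1 or 2 (0.51 in both cases) or with quantile normalization (0.23). Mal, a proteolipid that sorts membrane proteins to myelin, read 4183 and 4276 against 3331 and 2559, which gave 0.84 ± 0.1 (adjusted p = 0.00428 in limma). Mag, an adhesion molecule of the membrane next to the axon, read 281 and 272 against 104 and 96.8. Its change of −0.08 ± 0.083 did not pass (adjusted p = 0.415 in limma), nor did that of Mog, a protein of the outer myelin surface, at 205 and 186 against 84.8 and 81.5 (0.14, adjusted p = 0.31 in limma). The scaled levels of Mog overlapped between groups, and those of Mag did not.

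Mobp, a basic protein of compact myelin, had 3 probes that differed in signal. The brightest, at 91.3 and 116 against 52.8 and 45.8, changed by 0.31 ± 0.138 and did not pass (adjusted p = 0.12 in limma). The second, at 20.8 and 20.6 against 12.7 and 10.7, was higher by 0.54 ± 0.077 (adjusted p = 0.00673 in limma), and the remaining probe was not well above background on any array. Cldn11, the claudin of myelin tight junctions, had untreated arrays that were unlike each other (477 and 316) and OGD arrays at 183 and 186. The groups overlapped after scaling (0.30 ± 0.246, adjusted p = 0.337 in limma), and the change was 0.61 without untreated replicate 1 and −0.0059 without untreated replicate 2. Gjc3, a connexin of myelinating glia, read 16.5 and 12.9 untreated and was not well above background after OGD (4.72 and 3.59, adjusted p = 0.0845 in limma).

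Ermn, a cytoskeletal protein of mature oligodendrocytes, had 2 probes that read far apart, and the sequence of the bright probe is shown because of its repeat. The repeat of GAA, in capitals, runs over 21 of its 60 bases. The probe of Opalin, a membrane protein found in mature oligodendrocytes, and that of Myrf are given beside it, since both stand for mature cells and neither was well above background on both arrays of a group.
Ermn: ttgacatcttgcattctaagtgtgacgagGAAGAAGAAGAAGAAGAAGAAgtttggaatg
Opalin: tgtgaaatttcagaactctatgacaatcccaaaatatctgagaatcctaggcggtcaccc
Myrf: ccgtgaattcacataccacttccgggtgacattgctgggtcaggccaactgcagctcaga
The Ermn probe with the repeat (mm9 chr2:57900470-57900529) read 20133 and 14736 untreated and 15358 and 15389 after OGD. It was higher by 1.21 ± 0.198 after scaling (adjusted p = 0.00935 in limma), or by 0.70 with quantile normalization, and it did not pass in the methods' t-test. The probe without the repeat (chr2:57897554-57897613) read 145 and 134 against 103 and 85.8, and it was higher by 0.80 ± 0.091 (adjusted p = 0.0038 in limma). Of all 39429 probes, 49 (0.124%) hold at least 15 bases of this repeat. Among the 46 of them that were tested, 32 were higher and the others did not pass (background 38.0% and 27.1% of all probes), with a median change of 1.12 against 0.18 over all probes, and whether they read other RNAs that hold the repeat was not tested. Opalin gave 6.99 and 8.68 untreated and 2.05 and 1.52 after OGD, and untreated replicate 2 was the only array on which it was well above background.

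With the processed signal, the enzymes of myelin lipids held the largest decrease of the 28 genes tested, whereas with normexp correction that of Olig2 (−2.38) was larger. Of the 3 enzymes, 2 were lower (27.9% of all genes) and 1 did not pass. Fa2h, 1 of the 2 lower, passed the filter only through the untreated arrays. With the filter applied to all 4 arrays, 1 of 2 tested was lower (28.2% of all genes). The median of the 3 was −0.91, which is the fitted value of Fa2h, and −0.60 with Fa2h at the bound given below, and it was −2.19 on the spike-in scale. With normexp correction 2 were higher and 1 lower (60.6% and 20.8% of all genes), with a median of 0.95 against 0.51 for all genes. Gal3st1, the sulfotransferase that makes sulfatide from galactosylceramide, read 308 and 293 without treatment and 18.9 and 11.6 after OGD on its probe at mm9 chr11:3899197-3899256 (NM_016922). It fell from −2.84 ± 0.064 to −5.81 ± 0.362 (SD, n = 2), which is 7.83-fold lower (−2.97 ± 0.202, adjusted p = 0.00143 in limma). Its signal after OGD was low, 15.2 units on average, and with normexp correction the change was −1.14. Ugt8a makes galactosylceramide, the substrate of this step. It read 29.6 and 28.6 untreated and 13.5 and 17.1 after OGD, and the change of 0.43 ± 0.207 did not pass (adjusted p = 0.141 in limma), although without OGD replicate 1 it was 0.70 and passed. Fa2h adds a hydroxyl group to the fatty acid of these lipids. It read 25.6 and 30.8 untreated and was not well above background after OGD (7.28 and 4.60), so that with the processed signal only a bound can be given, a level at least 1.52-fold lower (adjusted p = 0.0225 in limma). Here the bound sets the untreated mean against the higher of the dim probe itself and the lowest signal well above background on each OGD array. Fa2h did not pass without untreated replicate 1 or 2 or in the methods' t-test, and with normexp correction it was above 0 (0.95), so that the bound does not hold there.

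In the group of mature cell metabolism and signaling, 3 of the 4 genes tested were higher (37.1% of all genes) and 1 did not pass, with a median of 0.54 that became −0.75 on the spike-in scale. Without untreated replicate 1 or 2 fewer of the 4 passed, as was so for all genes. The median was then 0.58 or 0.50, beside 0.20 or 0.11 for all genes. Sirt2, a deacetylase abundant in myelin, read 11991 and 12535 untreated and 10082 and 10027 after OGD. It was 2.12-fold higher after scaling (1.09 ± 0.1, adjusted p = 0.00244 in limma) and at −0.20 on the spike-in scale, and with quantile normalization the change was 0.71. Qdpr, which regenerates tetrahydrobiopterin, read 18553 and 18830 against 11545 and 11127 and was higher by 0.65 ± 0.089 (adjusted p = 0.00593 in limma). The other Qdpr probe gave nearly the same change, 0.69 (adjusted p = 0.00581 in limma). The first did not pass without untreated replicate 1 or 2 (0.65 in both cases) or with quantile normalization (0.18).

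Trf, transferrin, which supplies iron to myelinating cells, read 812 and 732 without treatment and 412 and 392 after OGD. The change was 0.43 ± 0.105 (adjusted p = 0.0272 in limma) and did not pass without untreated replicate 1 (0.52), untreated replicate 2 (0.35) or OGD replicate 2 (0.37), with the percentile over probes well above background (0.28), or in the methods' t-test. Its other probe, at 325 and 328 against 202 and 217, was higher by 0.73 (adjusted p = 0.0116 in limma). Aspa, which releases acetate from N-acetylaspartate, read 118 and 119 against 45.4 and 25.5. Its OGD arrays were unlike each other, and the change of −0.42 ± 0.242 did not pass (adjusted p = 0.198 in limma). It was −0.74 without OGD replicate 1 and −0.10 without OGD replicate 2. Lingo1, an inhibitor of myelination, was not well above background on any array (2.03 and 3.04 untreated, 2.18 on both OGD arrays).

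Ratios of genes within an array do not depend on a scaling by 1 factor per array, and 5 pairs were compared in this way. They do depend on quantile normalization and on background correction. On the log2 scale the ratio of Olig2 to Olig1 was −2.87 and −2.94 without treatment and −5.05 and −4.79 after OGD, so that Olig2 fell by 2.01 relative to Olig1. The ratio of Pdgfra to Cspg4 was −0.51 and −0.16 against −2.31 and −2.67, a change of −2.15. Mbp gained relative to Olig2, from −5.77 and −5.54 to −1.99 and −1.93, a change of 3.69. In these pairs and in Mbp over Mag (1.27), the untreated and OGD arrays did not overlap. The Mbp ratios use the probe with a change of 1.19, and with the other tested Mbp probe, which changed by 0.50 and did not pass, they would be smaller. Sox10 over Sox8 changed by 0.71, a value that rests in part on OGD replicate 2, where Sox10 was not well above background. With quantile normalization Olig2 over Olig1 changed by −1.45 and Sox10 over Sox8 by 0.56. With 2 arrays against 2, the exact two-sided permutation test gave p = 0.333 for each pair (0.333 adjusted over the 5 pairs), which is the smallest p the design allows. A ratio of probes shows unequal change and not that either gene was constant.

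**Figure D3:**
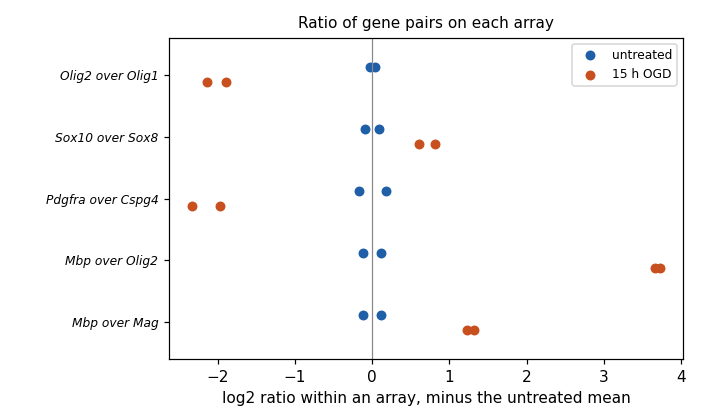
Log2 ratio of 5 gene pairs on each array, with the mean of the untreated arrays set to 0 (blue, untreated; orange, 15 h OGD). The OGD arrays of Mbp over Olig2 lie 3.69 above the untreated mean and those of Pdgfra over Cspg4 lie at −2.15 on average.

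Probes of the same gene did not always give the same change. In 7 genes a pair of tested probes could be compared, and in 6 of them the probe nearer the start of the gene had the more positive change. The difference was 0.68 for Tspan2 (SD of the ratio between replicates 0.0183 untreated and 0.0745 after OGD), 0.55 for Nkx2-2 (0.0785 and 0.14), 0.40 for Ermn (0.241 and 0.192) and 0.30 for Trf (0.115 and 0.123). For Qdpr (0.038, SD 0.0494 untreated and 0.0039 after OGD) and Mobp (0.23, 0.252 and 0.0278) it was within the untreated spread but not within that after OGD. Mbp was the exception in sign, at −0.69 with an SD of 0.0306 untreated and 0.569 after OGD. In Nkx2-2 both probes fell and in Tspan2, Ermn, Trf and Qdpr both were higher, so that either probe gave the same sign on the percentile scale.

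With normexp correction, 7 genes were above 0 that were below it with the processed signal. This setting replaced the processed signal by the mean spot signal, subtracted background by another method and added an offset of 50 units, and the parts of these steps were not tested separately. Of the 28 genes, 22 were above 0 and 20 (71.4%) passed as higher, beside 14956 and 12718 (60.6%) of all 20997 genes, whose median change moved from 0.16 to 0.51. The 7 genes that went from below to above 0 were Sox10 (0.83), Gpr17 (1.10), Enpp6 (0.80), Mag (0.22), Gjc3 (1.07), Fa2h (0.95) and Aspa (0.45), of which Sox10 and Fa2h had passed as lower. Their mean signal after OGD lay between 3.08 and 101 units. The 6 genes below 0 with both signals were Olig2 (−2.38 with normexp), Gal3st1, Sox8, Nkx2-2, Olig1 and Pdgfra (−0.34), and these were below 0 in every setting tried, of which only 11 of 18 change the fitted values. A further 13 genes were above 0 in these settings except the spike-in scale, among them Bcas1, Mbp, Ermn, Sirt2, Cspg4, Mal, Nkx6-2, Qdpr, Cnp, Trf and Tspan2, the 11 that passed as higher.

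**Figure D4:**
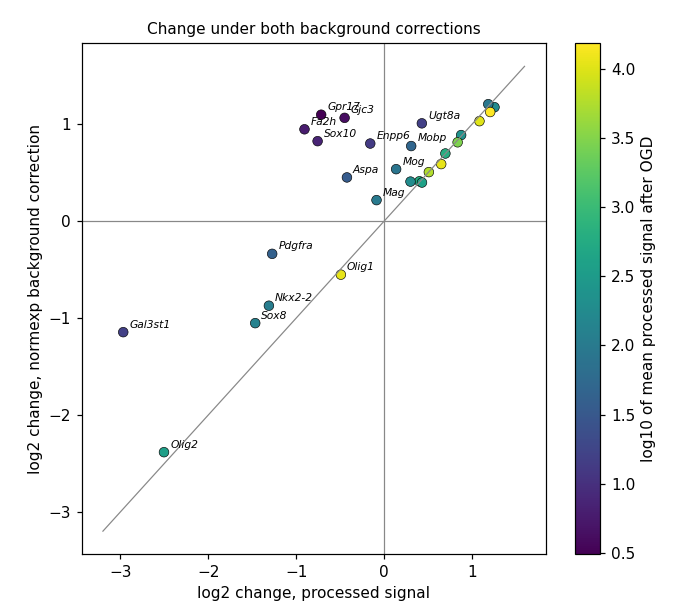
Change of the 28 tested genes (OGD minus untreated, log2) with the processed signal on the x axis and with normexp correction on the y axis, colored by log10 of the mean processed signal after OGD; the line marks equal values. Dim genes such as Gpr17, Gjc3, Fa2h and Sox10 lie in the upper left quadrant, below 0 on one axis and above 0 on the other, whereas Olig2 lies near the line.

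Other genes of the lineage, from a list of 69 that holds no member of the 31, were called about as often as all genes. Of the 63 tested, 26 were higher (41.3%), 18 were lower (28.6%) and 19 did not pass, with a median of 0.19, beside 37.1% and 27.9% of all genes and their median of 0.16. On the spike-in scale 1 was higher and 56 were lower (88.9%, beside 83.4% of all genes). The largest increase was that of Ndrg1, a cytoplasmic protein of myelinating cells that is also known as a gene induced by hypoxia, which read 16995 and 16186 against 30276 and 26537. It was 4.43-fold higher (2.15 ± 0.081, adjusted p = 0.000754 in limma), and its raw signal was higher on both OGD arrays. Sox11, a factor of immature neural cells, fell by 2.19 (907 and 779 against 77.1 and 65.9, adjusted p = 0.000986 in limma).

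Further genes of this list were lower. Id4, an inhibitor of differentiation, fell by 1.65 (34928 and 35242 against 4730 and 3954, adjusted p = 0.000879 in limma). Sema4d, a semaphorin of oligodendrocytes, fell by 1.88 (1261 and 1244 against 137 and 126, adjusted p = 0.000791 in limma). Sox6, which keeps progenitors immature, fell by 1.49 (1185 and 1329 against 180 and 165, adjusted p = 0.0013 in limma). Hes5, a Notch target, fell by 1.50 and S1pr5, a sphingosine phosphate receptor, by 1.56 (adjusted p = 0.0137 and 0.0172 in limma), with OGD arrays that differed more, at 112 and 165 for Hes5 and 82.1 and 39.6 for S1pr5. Erbb3, Evi2a, Hapln2, Nxph1 and St18 were not well above background on any array. The counts were lower without an untreated array, at 16 higher and 7 lower without untreated replicate 1 and 16 and 8 without untreated replicate 2, beside 23.1% and 17.7% and 19.7% and 17.8% of all genes.

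Several of these genes are shared with other cells of the cultures, and markers of those cells were read beside them. All 15 astrocyte markers were well above background on the 4 arrays, with 7 higher and 2 lower (46.7% and 13.3%, beside 37.1% and 27.9% of all genes) and a median of 0.54. With quantile normalization 4 were higher and 4 lower (26.7% each, beside 28.5% and 31.2% of all genes), with a median of −0.03 against −0.02. Their summed level was 171 to 193 times the 75th percentile untreated and 257 to 259 after OGD, and it went the other way relative to the spiked-in probes, from 98.1 to 105 down to 57.7 to 59.9. Gfap, the filament protein of astrocytes, was higher by 0.72 ± 0.077 (47436 and 46408 against 31713 and 28266, adjusted p = 0.00321 in limma). Of 12 microglia markers, 11 were tested, of which 5 were higher and 2 lower (45.5% and 18.2%), and their sum was 5.01 to 5.40 against 11.6 to 11.8 (2.87 to 2.92 against 2.60 to 2.74 relative to the spiked-in probes). Of 12 neuron markers, 9 were tested, 3 were higher and 2 lower (33.3% and 22.2%), their sum was 26.9 to 28.9 against 28.9 to 31.9 (15.4 to 15.7 against 6.70 to 7.17), and Neurod6 and Slc17a7 were not above background on any array. Of 8 Schwann cell markers, which could share myelin genes, 6 were tested, and 3 were higher and 2 lower (50% and 33.3%), with sums of 1.80 to 1.81 against 3.17 to 3.33 (0.983 to 1.03 against 0.711 to 0.77) and Foxd3 above background on no array. All 4 lists stand beside the 37.1% and 27.9% of all genes. The counts rest on the untreated arrays in part. Without untreated replicate 1 they were 5 higher and 1 lower for astrocytes, 5 and 1 for microglia, 2 and 0 for neurons and 2 and 0 for Schwann cells, and without untreated replicate 2 they were 4 and 1, 5 and 0, 2 and 0, and 1 and 0 (23.1% and 17.7%, and 19.7% and 17.8%, of all genes). On the spike-in scale the shares lower were 12 of 15 for astrocytes, 8 of 11 for microglia, 7 of 9 for neurons and 5 of 6 for Schwann cells, between 72.7% and 83.3%, beside 83.4% of all genes. The part of these cells in the values of the lineage genes was not tested.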

How the data were processed

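RNA of 4 cultures, 2 untreated and 2 after 15 h OGD, was labeled with Cy3 and read on single-color arrays. The deposited intensity is the processed signal of Agilent Feature Extraction 11.5.1.1, from which the authors' software had subtracted background within each array, without normalization between arrays. The authors' series table holds the same intensity. Probe positions are on mm9, per the file headers.

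Control spots and outlier spots were left out, log2 signals were averaged per probe, and each array's 75th percentile over non-control probes was subtracted, as in the methods of the study. A probe was kept if at least 0.5 of its spots were well above background on both arrays of a group, and 106 probes without a usable spot on an array were dropped, which left 28163. Groups came from the labels and were compared with limma 3.58.1 (lmFit, eBayes) in R 4.3.3 with Benjamini–Hochberg adjustment over all probes kept. The brightest probe stood for a gene in counts. The spread was estimated with a prior of 1.85 degrees of freedom, and 2 arrays per group limit the precision. Plots were drawn in Python 3.11.15 (pandas 2.3.3, matplotlib 3.10.9), and the fit was checked on simulated data.

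The genes named are all 31 members with every probe, and of the list of 69 other lineage genes those with the largest changes by a stated rule, of which some results are not reported here. Marker lists covered astrocytes, microglia, neurons, Schwann cells, and pericytes and fibroblasts. The members and lists were chosen with earlier results of these data known. Alternatives were the methods' t-test, a trended robust prior, the replicate block, normexp background correction (offset 50), quantile, median, well-above-background and spike-in scaling, other filters on dim probes, outlier spots kept, the mean over probes, a 2-fold limit and each array left out. Array numbers were not taken to pair the samples, since the labels do not say so. Deviations of same-numbered arrays correlated at −0.057, and with 2 arrays per group this cannot decide whether they share a culture. Promoter sequences are from RefSeq (GRCm38.p6), and exon and UTR annotations of probes were not used here.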

Additional observations from a re-analysis of the deposited data

How the results depend on the processing

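The arrays, 2 per group, and signals near background set the limits, and the causes of the following shifts were not tested. Of all probes, 18334 passed, 10757 to 19148 with an array left out and 8094 with a 2-fold limit. The 11 genes higher became 20 with normexp (60.6% of all genes), 0 on the spike-in scale (3.85%), 4 over 2-fold (12.7%) and 6 to 12 with an array left out (19.7% to 37.9%). The 8 lower became 24 on the spike-in scale (83.4%), 5 over 2-fold (15.0%) and 5 to 10 with an array left out (17.7% to 29.5%). In the methods' t-test they were 8 and 6. The other lineage genes, 26 higher and 18 lower, became 1 and 56 on the spike-in scale and 7 and 9 over 2-fold. With an array left out they were 16 to 27 and 7 to 22, and 10 were lower in the methods' t-test. The replicate block treats same-numbered arrays as pairs, which the labels do not state. With it 10 members were higher and 10 lower (34.4% and 26.4% of all genes), Gpr17 and Gjc3 being added and Trf lost. Ratio changes were −1.83 (normexp) and −1.45 (quantile) for Olig2 to Olig1, 1.88 and 0.56 for Sox10 to Sox8, and with normexp −1.23 for Pdgfra to Cspg4 and 0.99 for Mbp to Mag.

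On the spike-in scale the sign turned for Cspg4 (−0.41), Nkx6-2 (−0.59), Bcas1 (−0.030), Tspan2 (−0.88), Mbp (−0.10), Mog (−1.15), Mobp (−0.98), Cnp (−0.78), Cldn11 (−0.99), Ermn (−0.079), Mal (−0.45), Ugt8a (−0.86), Trf (−0.86), Qdpr (−0.64) and Sirt2 (−0.20). With normexp it turned for Sox10 (0.83), Gpr17 (1.10), Enpp6 (0.80), Mag (0.22), Gjc3 (1.07), Fa2h (0.95) and Aspa (0.45). It also turned for Mag (0.012, quantile), Mog (−0.0099, percentile over probes well above background) and Cldn11 (−0.0059 to 0.61 with an array left out, below 0 without untreated replicate 2). Of the values for single genes under the alternatives, 404 kept sign and call, 27 lost and 16 gained the call and 25 changed sign.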
